A study of Mus musculus with 6 samples.

Results

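The genes examined here are the 10 that encode the machinery of mitochondrial fusion and fission: Mfn1, Mfn2, Opa1, Oma1, Yme1l1, Dnm1l, Fis1, Mff, Mief1 and Mief2. They were chosen by symbol from the 24411 genes of a count table, and all 10 were among the 12892 genes that were abundant enough to be tested. RNA was sequenced from extensor digitorum longus (EDL), a hindlimb muscle made mostly of fast-twitch fibres, taken from 50-week-old C57BL/6J mice. The mAktDKO mice carry floxed Akt1 and Akt2 alleles together with Cre recombinase knocked into the Mlc1f locus, which is expressed in skeletal muscle fibres (n = 3 mice). The control floxed mice carry the same floxed Akt1 and Akt2 alleles without Cre (n = 3 mice). Akt1 and Akt2 encode serine/threonine kinases downstream of the insulin receptor. The comparison asks how gene expression differs in aged fast-twitch muscle in which both genes are targeted in the fibres. The EDL also holds vessels, connective tissue, nerve and blood, in which the floxed alleles are not the target of this Cre, and in RNA from whole muscle, fewer cells of a type and less RNA per cell cannot be told apart.

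Mitochondria in muscle fibres continually join and divide. The mitofusins Mfn1 and Mfn2 are GTPases of the outer membrane that tether and fuse neighbouring mitochondria, and Opa1 is the GTPase that fuses the inner membrane and holds the cristae narrow. The inner membrane proteases Oma1 and Yme1l1 cut Opa1 from long into short forms. Fission is carried out by the dynamin-like GTPase Drp1, encoded by Dnm1l, which is drawn from the cytosol to the outer membrane by the adaptors Mff, Fis1, Mief1 (MiD51) and Mief2 (MiD49) and constricts the organelle. In skeletal muscle this network spreads membrane potential along the fibre and sorts damaged mitochondria for removal.

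Between 13738803 and 15445514 estimated counts per mouse were assigned to genes. A count of 3, taken as the limit of detection, corresponds to 0.194 to 0.218 CPM (counts scaled to the total of the library), and the 10 genes had from 222 to 10081 counts per mouse. Levels are given as CPM after scaling between mice by trimmed means (TMM), and a log2 change is the mAktDKO level against the control floxed level in the edgeR fit. Akt2 had 51.3, 49.1 and 52.7 CPM in mAktDKO mice 1, 2 and 3, against 172, 133 and 143 CPM in the control floxed mice numbered 2, 3 and 4 in the table (log2 change -1.55, SE 0.11, edgeR adjusted p = 9.23e-04). For Akt1 the mAktDKO mice measured 58.9, 56.8 and 51.4 CPM, and the control floxed mice 66.4, 65.5 and 66.5 CPM (log2 change -0.25, SE 0.080, edgeR adjusted p = 0.114). Both transcripts were thus still counted in the mAktDKO muscle, and counts over the whole gene do not show the deleted part alone. None of the 10 genes lies on chromosome 7 or 12, where Akt2 and Akt1 are found, while Mff shares chromosome 1 with Myl1 (chr1:66924295-66945404), the gene of Mlc1f into which Cre was inserted.

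The fusion and fission genes had mostly lower levels in the mAktDKO mice. Mief2, a fission adaptor, showed the largest difference among the 10, with a level that dropped by 34.5%, and was the only one to pass an adjusted p under 0.05 in the edgeR quasi-likelihood test. No member passed an adjusted p under 0.01 in edgeR, which 3 genes or 0.0233% of all genes tested passed, and 1 of 10 members passed 0.05 against 1.18% of all genes tested. At an unadjusted p under 0.05 there were 6 members that were lower (13.1% of all genes tested were lower at that level) and 1 that was higher (11.4% of all genes). The estimated change was below 0 for 8 of 10 members and for 47.5% of all genes tested. Each mAktDKO mouse was below each control floxed mouse for 5 members (16.6% of all genes), and above for 1 member (14.6% of all genes). The median log2 change of the 10 genes was -0.25, and the median of all genes tested was 0.017. With DESeq2, the tool that the study's methods name together with the threshold of 0.01, 1 member (Mief2, DESeq2 adjusted p = 4.41e-05) passed an adjusted p under 0.01, against 3.55% of the genes to which DESeq2 gave an adjusted p, and 2 members (Mief2 and Fis1) passed 0.05, against 8.17%. With counts scaled by library totals instead of TMM, the median of all genes moved from 0.017 to 0.16 and that of the members from -0.25 to -0.11, a shift that is nearly the same for every gene and leaves the members' median lower than that of all genes by 0.27. The counts of lower members were smaller with library totals: at an unadjusted p under 0.05 there were 2 members lower (5.02% of all genes) and 1 higher (23% of all genes), 3 members, Mfn1, Oma1 and Mief2, were lower without overlap (6.9% of all genes), and 1 member, Yme1l1, was higher without overlap (26.5% of all genes).

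**Figure D1:**
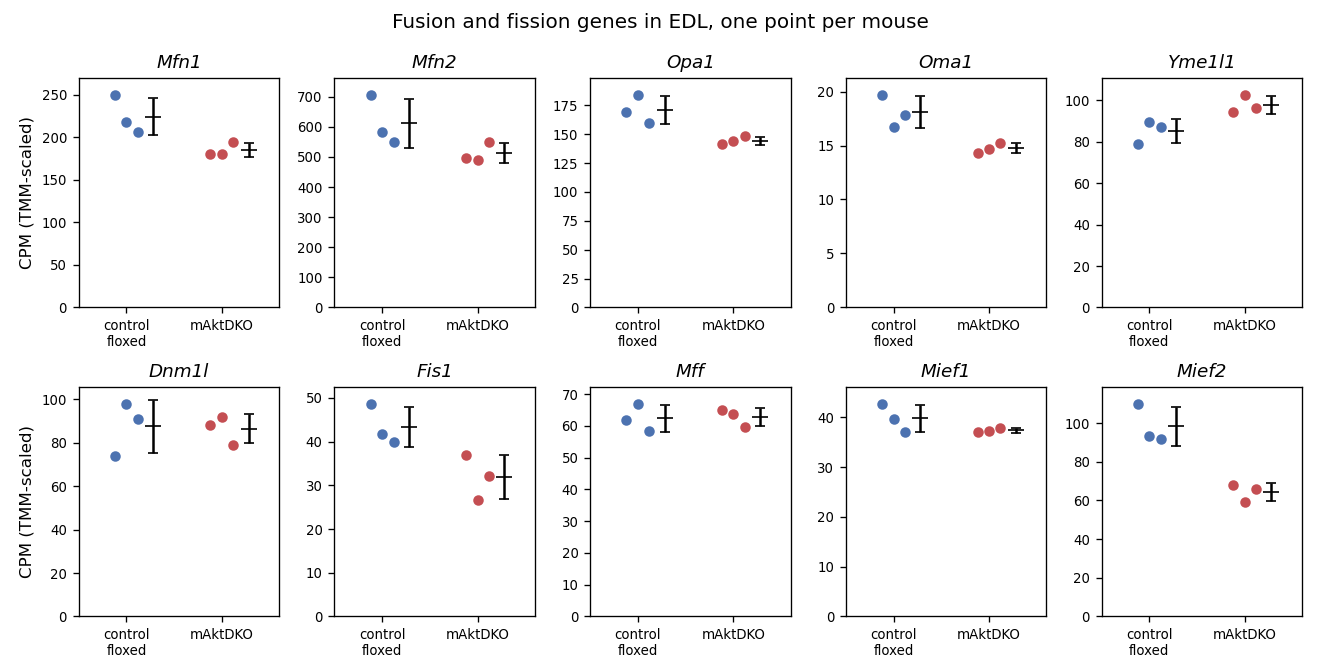
Level of each fusion and fission gene in each mouse, in TMM-scaled CPM on axes that start at 0. Each point is a mouse (3 control floxed in blue, 3 mAktDKO in red), and the bar beside the points gives the mean ± SD. The groups do not overlap for Mfn1, Opa1, Oma1, Fis1 and Mief2, which were lower in mAktDKO mice, nor for Yme1l1, which was higher.

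Among the adaptors that bring Drp1 to the outer membrane, Mief2 and Fis1 were lower in every mAktDKO mouse (as were 16.6% of all genes tested), whereas Mff and Mief1 overlapped between the groups. Mief2 lies at chr11:60728398-60732951 on the plus strand (mm10). It had 67.8, 59.2 and 66.2 CPM in mAktDKO mice 1, 2 and 3, and 110, 93.4 and 91.7 CPM in control floxed mice 2, 3 and 4. The highest mAktDKO mouse was thus below the lowest control floxed mouse by more than the SD of either group, 4.56 CPM in mAktDKO mice and 9.94 CPM in control floxed mice. The log2 change of Mief2 was -0.61 (SE 0.097, 95% interval -0.83 to -0.39, edgeR adjusted p = 0.0394), and it ranked 45th by p among all genes tested. Its call at 0.05 was lost when any mAktDKO mouse was left out (edgeR adjusted p = 0.103, 0.22 and 0.115 without mice 1, 2 and 3) and without control floxed mouse 3 (edgeR adjusted p = 0.0789), while the log2 change stayed between -0.66 and -0.52 on leaving out a mouse. With library totals the log2 change of Mief2 was -0.47 (edgeR adjusted p = 0.0471).

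Mief2 was also the only member whose promoter holds an E-box, the letters CACGTG, which read the same on both strands and are bound by basic helix-loop-helix factors. The 250 bases before its annotated start are shown because Mief2 is the member with the smallest p, with the E-box in capitals (chr11:60728148-60728397, plus strand, RefSeq, GRCm38.p6).
Mief2 upstream: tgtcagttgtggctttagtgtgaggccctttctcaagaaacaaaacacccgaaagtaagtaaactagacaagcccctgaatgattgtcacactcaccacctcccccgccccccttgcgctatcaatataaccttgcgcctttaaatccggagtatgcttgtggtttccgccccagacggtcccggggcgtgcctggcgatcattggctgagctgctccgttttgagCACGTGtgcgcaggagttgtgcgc
The E-box lies at chr11:60728374-60728379. An E-box was present in the 300-base promoter window, 250 bases before to 50 after the start, of 8.09% of 27025 genes, which were not matched to Mief2 in expression or base content. The match is a description of these letters and not a measured binding site.

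Fis1, a small tail-anchored protein of the outer membrane, lies at chr5:136953275-136966234 on the plus strand. It had 36.8, 26.7 and 32.1 CPM in mAktDKO mice and 48.5, 41.8 and 39.8 CPM in control floxed mice. The groups did not overlap, although they did with library totals, and the mAktDKO mice spread more widely for Fis1 than for the other adaptors. Its log2 change was -0.45 (SE 0.13, 95% interval -0.74 to -0.15), with an edgeR adjusted p of 0.0943 and a DESeq2 adjusted p of 0.0369. With library totals the log2 change was -0.31 (edgeR adjusted p = 0.157).

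Mff, a tail-anchored adaptor and a main receptor for Drp1, lies at chr1:82724890-82752394 on the plus strand. It had 65.1, 63.9 and 59.7 CPM in mAktDKO mice and 61.9, 66.8 and 58.3 CPM in control floxed mice. The groups overlapped, and the 95% interval of the log2 change, -0.17 to 0.20 around 0.014, spans 0 (edgeR adjusted p = 0.934). The log2 change of Mff was 0.15 with library totals, and its sign turned without mAktDKO mouse 1 (-0.012) or control floxed mouse 4 (-0.034). Mief1, the paralogue of Mief2, lies at chr15:80234018-80253371 on the plus strand. It had 37.0, 37.3 and 37.9 CPM in mAktDKO mice and 42.6, 39.7 and 37.0 CPM in control floxed mice. The mAktDKO mice were close to each other, and control floxed mouse 4 was among them (log2 change -0.091, 95% interval -0.28 to 0.097, edgeR adjusted p = 0.521). The sign of Mief1 turned with library totals (0.049), and its log2 change was -0.040 without control floxed mouse 2 and -0.14 without control floxed mouse 4.

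The GTPase itself showed no difference that these mice could resolve. Dnm1l lies at chr16:16312230-16358959 on the minus strand. Its levels were 88.5, 91.9 and 79.0 CPM in mAktDKO mice and 74.1, 97.8 and 91.1 CPM in control floxed mice. Control floxed mouse 2 was the lowest of the 6 and control floxed mouse 3 the highest. The log2 change was -0.020 (SE 0.11, 95% interval -0.28 to 0.24, edgeR adjusted p = 0.932), and its sign turned with library totals (0.12) and on leaving out mAktDKO mouse 3 or control floxed mouse 3 or 4.

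Both mitofusins were estimated lower by similar amounts. Mfn1 lies at chr3:32529465-32579239 on the plus strand and had 181, 181 and 194 CPM in mAktDKO mice, against 249, 218 and 207 CPM in control floxed mice. The groups did not overlap (log2 change -0.28, SE 0.092, 95% interval -0.49 to -0.07, edgeR adjusted p = 0.123), and with library totals the log2 change was -0.14. Mfn2 lies at chr4:147873599-147904704 on the minus strand. It had 497, 489 and 551 CPM in mAktDKO mice and 705, 583 and 548 CPM in control floxed mice. Here mAktDKO mouse 3 was just above control floxed mouse 4, so that the groups overlapped, and control floxed mouse 2 was far above the other 5 mice. The log2 change of Mfn2 was -0.26 (SE 0.11, 95% interval -0.51 to -0.0056, edgeR adjusted p = 0.195), and it was -0.14 without control floxed mouse 2 and -0.12 with library totals.

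In the inner membrane, Opa1 and its protease Oma1 were lower in every mAktDKO mouse, and the protease Yme1l1 was higher in every one. Of all genes tested, 16.6% were lower and 14.6% higher without overlap, and none of these members passed an adjusted p under 0.05 in edgeR. Opa1 lies at chr16:29579334-29654884 on the plus strand. It had 141, 144 and 148 CPM in mAktDKO mice and 170, 184 and 160 CPM in control floxed mice. The mAktDKO mice were within a narrow range (SD 3.47 CPM) below the control floxed mice (SD 12.1 CPM), with a log2 change of -0.24 (SE 0.081, 95% interval -0.43 to -0.06, edgeR adjusted p = 0.125). With library totals the groups overlapped and the log2 change was -0.11 (edgeR adjusted p = 0.417).

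Oma1, a metalloprotease that cuts Opa1 when the membrane potential is lost, lies at chr4:103313812-103371868 on the plus strand. It was the least abundant of the 10 in CPM, with 14.3, 14.7 and 15.2 CPM in mAktDKO mice and 19.6, 16.7 and 17.8 CPM in control floxed mice. The groups did not overlap (log2 change -0.29, SE 0.10, 95% interval -0.52 to -0.07, edgeR adjusted p = 0.131), and with library totals the log2 change was -0.15, still without overlap. Yme1l1, an ATP-dependent protease that cuts Opa1 constitutively, lies at chr2:23156369-23199260 on the plus strand. It had 94.5, 102 and 96.3 CPM in mAktDKO mice and 78.9, 89.7 and 87.2 CPM in control floxed mice. This was the only member with every mAktDKO mouse above every control floxed mouse (log2 change 0.20, SE 0.082, 95% interval 0.012 to 0.38, edgeR adjusted p = 0.180), and with library totals the log2 change was 0.33.

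**Figure D2:**
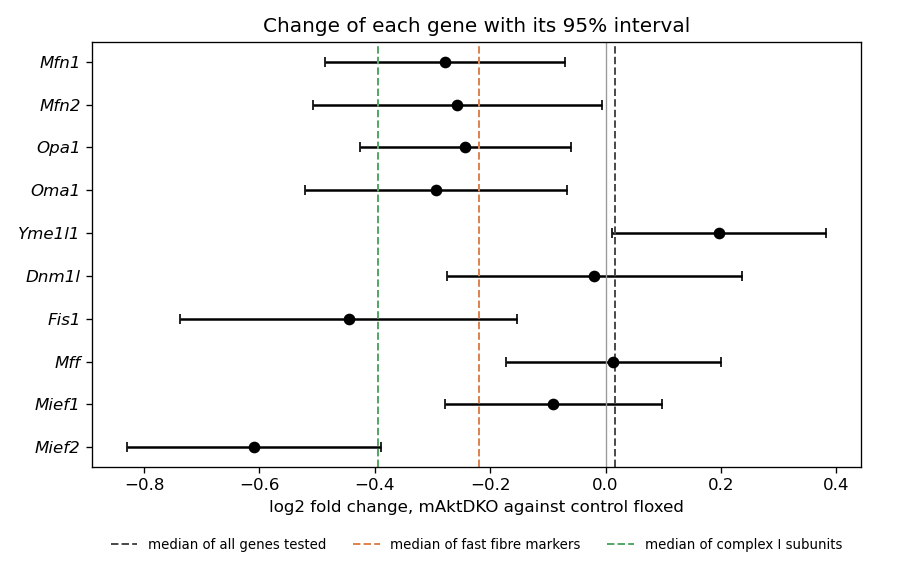
Log2 fold change of each gene, mAktDKO against control floxed, with its 95% interval from the edgeR fit (3 mice per group). Dashed lines give the median log2 change of all genes tested (0.017), of 11 fast fibre markers (-0.22) and of 36 complex I subunits (-0.39). The interval of Mief2 ends at -0.39 and that of Yme1l1 starts at 0.012, while those of Dnm1l, Mff and Mief1 span 0.

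Some of these genes act in pairs at a single step, while Opa1 to Mfn2 and Dnm1l to Mfn2 compare members of different steps. The ratio within a pair hardly depends on how the mice were scaled. There were 6 pairs, each compared by an exact two-sided permutation test of 3 mice against 3, in which the smallest possible p is 0.1. The ratio of Mief1 to Mief2, in log2 units of CPM, was -0.87, -0.67 and -0.80 in mAktDKO mice and -1.36, -1.23 and -1.30 in control floxed mice. The groups were apart and the balance of the MiD adaptors lay 0.52 further to Mief1 in mAktDKO mice (exact permutation p = 0.1, 0.2 adjusted over the 6 pairs). The ratio of Oma1 to Yme1l1 was -2.71, -2.79 and -2.65 in mAktDKO mice and -2.00, -2.42 and -2.28 in control floxed mice. It was lower by 0.49 in mAktDKO mice, without overlap (exact permutation p = 0.1, 0.2 adjusted). The ratio of Mff to Fis1 was 0.82, 1.25 and 0.89 in mAktDKO mice and 0.35, 0.67 and 0.55 in control floxed mice. This ratio was also apart between the groups, higher by 0.46 in mAktDKO mice (exact permutation p = 0.1, 0.2 adjusted).

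The other three ratios overlapped. Mfn2 to Mfn1 was nearly constant, from 1.41 to 1.50 in log2 units over the 6 mice, with a difference of 0.024 between the groups (exact permutation p = 0.5, 0.6 adjusted). Opa1 to Mfn2 differed by 0.0095 (exact permutation p = 0.9, 0.9 adjusted) and Dnm1l to Mfn2 by 0.24 (exact permutation p = 0.5, 0.6 adjusted), a difference that was 0.015 without control floxed mouse 2. For both, control floxed mouse 2, the mouse with the highest Mfn2 level, had the lowest ratio.

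**Figure D3:**
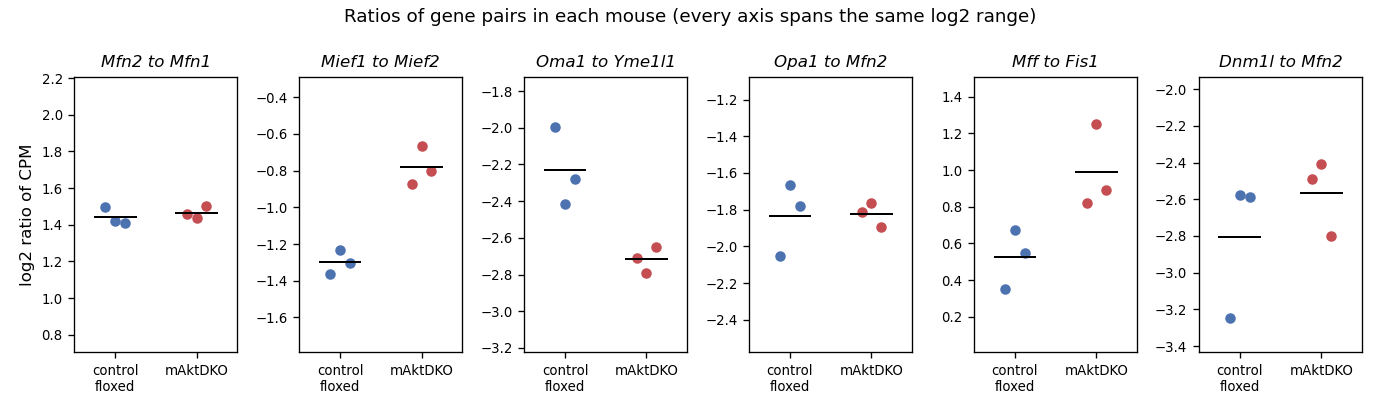
Log2 ratio of the CPM of 6 gene pairs in each mouse (points) with the group mean (line), 3 control floxed mice in blue and 3 mAktDKO mice in red. Every axis spans the same range of log2 units. The groups are apart for Mief1 to Mief2 and for Mff to Fis1, higher in mAktDKO mice, and for Oma1 to Yme1l1, lower in mAktDKO mice.

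To compare the genes with each other, CPM was divided by the length of their coding-transcript exons in kilobases. In control floxed mice Mfn2 had the highest level, 118 ± 15.9 CPM per kilobase (SD, n = 3), above Mfn1 at 40.4 ± 4.01. The next 2 genes could not be separated from Mfn1 by their spread, Fis1 at 39.4 ± 4.13 and Mief2 at 39.0 ± 3.94 CPM per kilobase. Mff (28.6 ± 1.95) and Opa1 (26.7 ± 1.89) followed and overlapped each other, and so did Dnm1l (19.3 ± 2.69) and Yme1l1 (18.1 ± 1.21). The lowest levels were those of Oma1, 9.43 ± 0.774, and Mief1, 6.97 ± 0.485 CPM per kilobase. In mAktDKO mice Mief2 came after Mff, with 25.5 against 28.8 CPM per kilobase, without overlap, and Yme1l1 came before Dnm1l, with 20.8 against 19.1 and with overlap. The order depends on the length: with the median length of the coding transcripts, an alternative chosen after seeing the data, the level of Mfn1 in control floxed mice was 140 CPM per kilobase, near the 151 of Mfn2, Opa1 was at 52.9 and stood before Mief2 and Mff, and Mief1 (9.71) came before Oma1 (9.43).

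Summed over these levels, the fusion GTPases Mfn1, Mfn2 and Opa1 had 151, 150 and 165 CPM per kilobase in mAktDKO mice and 208, 181 and 168 in control floxed mice. The fission genes Dnm1l, Fis1, Mff, Mief1 and Mief2 summed to 116, 104 and 107 CPM per kilobase in mAktDKO mice and to 140, 134 and 126 in control floxed mice. Mfn2, whose own groups overlapped, was the largest part of the fusion sum. In the fission sum, mean levels in control floxed and mAktDKO mice were 39.0 and 25.5 for Mief2 and 39.4 and 28.9 for Fis1. They were 19.3 and 19.1 for Dnm1l, 28.6 and 28.8 for Mff, and 6.97 and 6.55 for Mief1. The sums thus restate single genes and do not show a fall of every member. Both sums were lower in the mAktDKO mice without overlap. Both overlapped between the groups with library totals, where control floxed mouse 4 (162 for fusion, 121 for fission) was below 1 or more mAktDKO mice. Their ratio, fusion to fission, overlapped between the groups, at 1.296, 1.44 and 1.54 in mAktDKO mice and 1.49, 1.35 and 1.34 in control floxed mice. With TMM and the median length of the coding transcripts the ratio was 1.92, 2.16 and 2.28 in mAktDKO mice and 2.22, 2.04 and 2.03 in control floxed mice.

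The genes whose products hold and process Opa1 had lower estimates in the mAktDKO mice, none of which passed the test. Of the 8 genes of Opa1 processing and the prohibitin scaffold, all 8 had a log2 change below 0 (47.5% of all genes tested; median -0.25, and -0.11 with library totals), 7 were lower without overlap between the groups (16.6% of all genes), 5 were lower at an unadjusted p under 0.05 (13.1% of all genes), and none passed an adjusted p under 0.05 in edgeR (1.18% of all genes). The same shares of all genes apply to the counts of the other lists given next. Afg3l2, a subunit of the inner membrane m-AAA protease, had 73.4 ± 2.44 CPM in mAktDKO mice and 101 ± 14.1 in control floxed mice (SD, n = 3; log2 change -0.46, edgeR adjusted p = 0.0613). The prohibitin Phb, part of the ring that shields Opa1, had a log2 change of -0.33 (edgeR adjusted p = 0.0752), and Spg7, the partner of Afg3l2, one of -0.35 (edgeR adjusted p = 0.120). Among the inner membrane proteases named here, Oma1, Afg3l2 and Spg7 were thus estimated lower and Yme1l1 higher.

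Genes of the MICOS complex and its outer membrane partners, which form the cristae junctions that Opa1 borders, also had mostly lower levels. Of 11 genes, 9 had a log2 change below 0 (median -0.27, and -0.13 with library totals), 5 were lower at an unadjusted p under 0.05 and 1 passed an adjusted p under 0.05. That gene, Minos1 (Mic10), which bends the membrane at the junction, fell from 79.2 ± 2.72 CPM in control floxed mice to 59.0 ± 4.23 CPM in mAktDKO mice (log2 change -0.43, SE 0.082, edgeR adjusted p = 0.0490). The call of Minos1 was at the threshold. It was lost with DESeq2 size factors, upper-quartile scaling or library totals (edgeR adjusted p = 0.0515, 0.0538 and 0.0869). It was also lost without any mAktDKO mouse (0.116, 0.234 and 0.117 without mice 1, 2 and 3) and without control floxed mouse 2 or 3 (0.0614 and 0.101). The call held without a filter (edgeR adjusted p = 0.0346), with at least 10 counts in every mouse (0.0441) and without control floxed mouse 4 (0.0493). It also held with limma-voom (limma-voom adjusted p = 0.0471) and in the DESeq2 test (DESeq2 adjusted p = 0.00379). Mtx2 (log2 change -0.51, edgeR adjusted p = 0.0637) and Samm50 (-0.34, edgeR adjusted p = 0.0752), which sort proteins into the outer membrane, came next.

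Of 12 further genes linked to fission, 11 were tested, since Mtfr2 had at most 3 counts in a mouse. The log2 change was below 0 for 10 of 11 (median -0.22, -0.085 with library totals, and -0.31 to -0.14 on leaving out a mouse), with Dnm2, a dynamin, as the exception, and 4 were lower at an unadjusted p under 0.05. Mtfp1, an inner membrane protein that promotes fission, had 26.3 ± 2.66 CPM in mAktDKO mice and 38.9 ± 6.32 in control floxed mice (log2 change -0.57, edgeR adjusted p = 0.0623). Mtfr1l had a log2 change of -0.33 (edgeR adjusted p = 0.0954) and the phosphatase Pgam5 one of -0.32 (edgeR adjusted p = 0.133).

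Among enzymes and receptors that modify the fusion and fission proteins, the calls at an unadjusted p were near the shares of all genes. Of 17 tested, 12 had a log2 change below 0 and 5 above (median -0.090, and -0.18 to -0.072 on leaving out a mouse), with 3 lower (13.1% of all genes) and 2 higher (11.4% of all genes) at an unadjusted p under 0.05 and none past an adjusted p under 0.05. Fam73b (mitoguardin 2), which acts with the mitofusins, had a log2 change of -0.45 (edgeR adjusted p = 0.0759). The mitophagy receptor Bnip3l (0.31, edgeR adjusted p = 0.0998) and Ppp2r2b, a phosphatase subunit that acts on Drp1 (1.25, edgeR adjusted p = 0.101), had higher levels, the latter at 1.46 ± 0.298 CPM in mAktDKO mice and 0.611 ± 0.234 in control floxed mice. The 6 tested genes of mitochondrial transport along microtubules had a median log2 change of -0.097, with 5 below 0 and 2 lower at an unadjusted p under 0.05. They were led by the Miro GTPase Rhot2 (log2 change -0.45, edgeR adjusted p = 0.0838, and -0.29 without control floxed mouse 2) and the motor adaptors Trak1 (-0.30, edgeR adjusted p = 0.116) and Trak2 (-0.13, edgeR adjusted p = 0.328, and -0.085 without that mouse). With library totals the medians of these 2 lists were above 0, at 0.045 and 0.041.

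**Figure D4:**
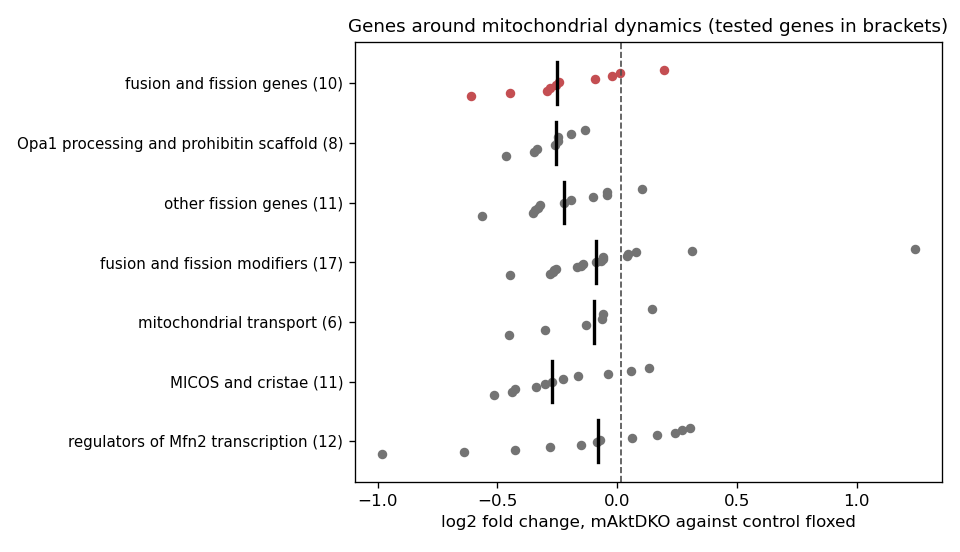
Log2 fold change, mAktDKO against control floxed, of every tested gene (points) of the fusion and fission genes (red) and of 6 lists around them (grey), with the median of each list (bar). The dashed line is the median of all genes tested, 0.017. Medians were -0.25 for the fusion and fission genes and for Opa1 processing, and -0.27 for MICOS and cristae.

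The factors linked to transcription of Mfn2 or of other genes for mitochondria, Tfam among them, were mixed. Of 12 tested, 7 had a log2 change below 0 (median -0.078, 0.058 with library totals, and -0.16 to -0.027 on leaving out a mouse), 4 were lower at an unadjusted p under 0.05 and 1 passed an adjusted p under 0.05. That gene, Esrra, which encodes the nuclear receptor ERRα, fell from 75.8 ± 9.18 CPM in control floxed mice to 48.7 ± 3.83 in mAktDKO mice (log2 change -0.64, SE 0.11, edgeR adjusted p = 0.0396). The call of Esrra was lost with library totals (edgeR adjusted p = 0.0573), without any mAktDKO mouse (0.0966, 0.22 and 0.115 without mice 1, 2 and 3) and without control floxed mouse 3 (0.0842). It held without a filter (edgeR adjusted p = 0.0173), with limma-voom (limma-voom adjusted p = 0.0392) and in the DESeq2 test (DESeq2 adjusted p = 6.41e-05). The ERRα coactivator Ppargc1b had a log2 change of -0.43 (edgeR adjusted p = 0.0598) and the related receptor Esrrb one of -0.98 (edgeR adjusted p = 0.115), which was -0.48 without control floxed mouse 2. The 5 genes above 0 were Nrf1 (0.31), the related receptor Esrrg (0.27), the coactivator Ppargc1a (0.24), Mef2a (0.17) and Gabpa (0.064). Their edgeR adjusted p ran from 0.227 to 0.699. Mef2a was higher in every mAktDKO mouse, and 14.6% of all genes were higher without overlap. The Foxo genes were listed for their role downstream of Akt, which phosphorylates the proteins, a step that transcript levels do not measure. Foxo1 had 49.2 CPM in mAktDKO mice and 51.8 in control floxed mice, Foxo3 had 21.7 and 24.0 CPM, and Foxo4 had 117 and 124 CPM.

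The promoter windows of all 10 members were searched on both strands for the letters of 6 motifs, chosen after the data were seen. AAGGTCA, bound by ERRα and its relatives, was in none of the 10 and in 5.38% of 27025 genes, and GTAAACA, bound by FoxO factors, was in none and in 4.05%. AAGATGGC, bound by YY1, was in none and in 3.19%. No match says only that these letters are not in the window. CCGGAAG, bound by GABP and other ETS factors, was in 5 of 10 members (Mfn1, Yme1l1, Dnm1l, Fis1 and Mief1) and in 9.93% of genes. GCGCATGC, bound by NRF1, was in the promoter of Opa1 alone and in 3.05% of genes. All these shares are over annotated genes that were matched to the members neither in expression nor in the base content of their promoters. They do not show an excess of a motif in the members. The Opa1 window and 1 or 2 of the windows with the GABP letters for each of the other 5 genes are printed to show the motif letters, in capitals, with the bases around them (RefSeq, GRCm38.p6, on the strand of the gene). In Opa1 the letters occur on both strands, overlapping, and the capitals mark both.
Opa1, chr16:29579265-29579294, plus strand: gtggctccccGCGCATGCGCatgtcatccg
Mfn1, chr3:32529427-32529455, plus strand: gatccgaagcgCCGGAAGtagccgcccct
Fis1, chr5:136953246-136953274, plus strand: ggaggcaccacCCGGAAGttcaggcttcc
Mief1, chr15:80234004-80234032, plus strand: ggaggggccgaCCGGAAGtgcttccgcct
Yme1l1, chr2:23156421-23156449, plus strand: tgacagagtccCCGGAAGaggcggagcgc
Yme1l1, chr2:23156475-23156503, plus strand: ggaggcttgctCCGGAAGcactgtaccta
Dnm1l, chr16:16358546-16358574, minus strand: gctgtcgcttcCTTCCGGccgctgaggac
The 5 genes with the GABP letters include genes that were apart and lower (Mfn1, Fis1), apart and higher (Yme1l1) and overlapping (Dnm1l, Mief1).

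RNA of other genes moved with these differences. All 11 fast fibre markers had a log2 change below 0 in mAktDKO mice (median -0.22), 4 of them at an unadjusted p under 0.05 and none past an adjusted p under 0.05, and their summed level was 134230 to 149530 CPM against 154700 to 165770 CPM in control floxed mice. With library totals these sums overlapped (146010 to 150970 and 149040 to 161010 CPM), 9 of 11 were below 0 and the median was -0.083. The 7 slow fibre markers had a median of 0.44, with sums of 680 to 1317 CPM and 607 to 884 CPM. Of these Myl2 was below 0 (-0.11), and Myh7 was at 525 and 637 CPM in mAktDKO mice 1 and 2 but at 269 in mouse 3, within the control range of 168 to 368 CPM. Most markers of other cells had higher estimates: the median log2 change was 0.57 for 5 fibro-adipogenic genes (sums 18280 to 21736 CPM in mAktDKO and 7284 to 18401 CPM in control floxed mice), 0.88 for 5 adipocyte genes (178 to 310 and 153 to 204 CPM) and 0.46 for 6 macrophage and leukocyte genes (85.0 to 103 and 61.0 to 85.4 CPM). The 5 endothelial genes had a median of 0.29, the 4 Schwann cell genes 0.29, the 4 satellite cell genes 0.15 and the 4 smooth muscle and pericyte genes 0.099. In these lists the endothelial Kdr (-0.014), the smooth muscle gene Myh11 (-0.091) and the satellite cell gene Cdh15 (-0.42, lower in every mAktDKO mouse) were below 0, the last against 0.59 for Myf5. Among the adipocyte genes, Adipoq, Plin1, Cfd and Lep were within the control range in mAktDKO mouse 3. With library totals no gene of the slow fibre, endothelial and smooth muscle lists was below 0, and the medians of the smooth muscle and satellite cell lists were 0.24 and 0.29. Single mice carried much of these medians. Without control floxed mouse 2, which had the highest level of Mfn1, Mfn2, Oma1, Fis1, Mief1 and Mief2, the median was 0.22 for the fibro-adipogenic, 0.26 for the macrophage and leukocyte, 0.18 for the endothelial and 0.038 for the smooth muscle list. Without mAktDKO mouse 2 it was 0.28 for the fibro-adipogenic, 0.27 for the slow fibre and 0.081 for the satellite cell list, and without mAktDKO mouse 1 it was -0.0011 for the smooth muscle list. Leaving out control floxed mouse 3 raised it to 0.67 for the slow fibre, 0.46 for the endothelial and 0.24 for the satellite cell list, while over the 6 mice left out in turn it stayed between -0.28 and -0.18 for the fast fibre list. No gene of these 9 lists passed an adjusted p under 0.05 in edgeR. Among 4 red blood cell genes, Hbb-bs, a β-globin, did (edgeR adjusted p = 0.0180, and 0.0532 and 0.0746 without mAktDKO mouse 2 or 3) and was at 23.5, 9.23 and 10.01 CPM in mAktDKO mice and at 0 in the control floxed mice, so that it passed the filter on low counts only through the mAktDKO mice, whereas its near-identical copy Hbb-b1 had 1054 to 2749 estimated counts in each of the 6 mice. All 4 red blood cell genes had a log2 change above 0 (median 0.77, and 0.93 with library totals). Hba-a2 was higher in every mAktDKO mouse (1.07, edgeR adjusted p = 0.137), whereas Hba-a1 (0.20) and Hbb-bt (0.47) overlapped between the groups. The part of any of these markers in the differences of the fusion and fission genes was not tested.

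Measured within each mouse against the mean log2 CPM of the 11 fast fibre markers, Mfn1, Mfn2, Opa1 and Oma1 differed between the groups by 0.0059, 0.030, 0.039 and -0.0079, with overlap. Mief2 was still lower in every mAktDKO mouse, with a difference of -0.33 (2.23% of all genes tested were lower without overlap on this scale), and Fis1 differed by -0.17 with overlap. Yme1l1 (0.48), Mff (0.30) and Mief1 (0.19) were higher in every mAktDKO mouse on this scale, as were 45.4% of all genes, since the reference itself was lower. Against the 36 Nduf subunits of complex I, of which 35 had a log2 change below 0 and 10 passed an adjusted p under 0.05 (median -0.39, and -0.26 with 33 below 0 under library totals), the difference was -0.21 for Mief2, without overlap (1.06% of all genes), and -0.058 for Fis1. Yme1l1 (0.59), Mff (0.41), Dnm1l (0.38) and Mief1 (0.30) were apart on the other side, as were 59.7% of all genes, the complex I mean itself being lower in mAktDKO mice. The exact two-sided permutation p was 0.1, the smallest possible, for each gene whose groups were apart.

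**Figure D5:**
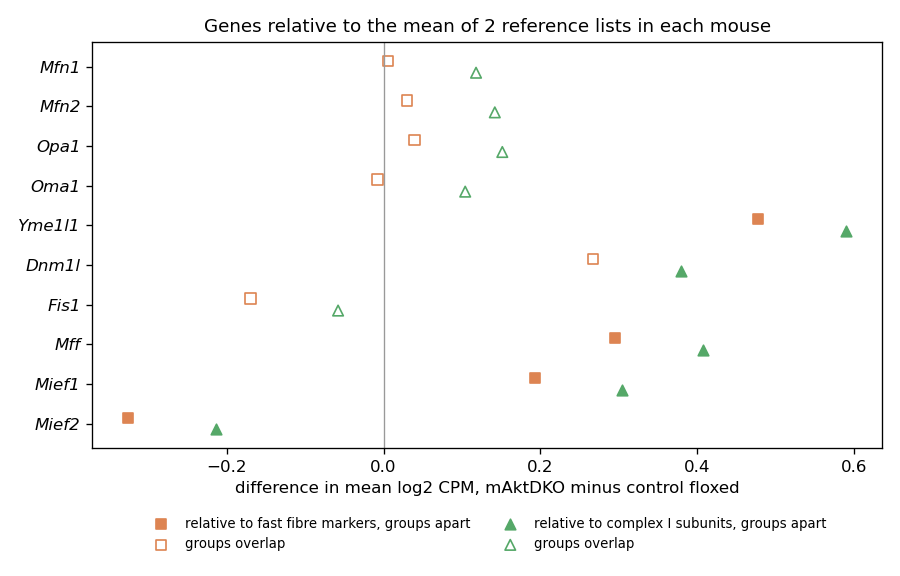
Difference between mAktDKO and control floxed mice in the mean log2 CPM of each gene after subtracting, in each mouse, the mean of 11 fast fibre markers (squares) or of 36 complex I subunits (triangles), n = 3 mice per group. Filled symbols mark genes whose groups do not overlap. Mief2 is the only gene apart and below 0, at -0.33 and -0.21, and Yme1l1 is the farthest above, at 0.48 and 0.59.

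Across the 6 mice, the genes whose log2 CPM, centred on its mean, lay closest to that of Mfn2 were Narf, Psmd3 and Ppm1a, with root mean square differences of 0.020, 0.026 and 0.027. For Mief2 they were Serhl, Rn45s and Ano8, at 0.031, 0.031 and 0.034. These distances are descriptions of likeness over 6 mice that share their libraries. Rn45s is a ribosomal RNA gene, and ribosomal RNA was depleted from these libraries. Its log2 change was -0.64, and whether the depletion differed between the mice was not tested. Where annotated neighbours share exons with a member, the counts may mix: Dnm1l shares 243 exon bases with the antisense gene Gm49521, Mff shares 195 with C430014B12Rik on the opposite strand, and Mief1 shares 213 with AC140267.1 on the same strand. None of the 3 neighbours is in the count table, and whether strand was used in counting was not stated.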

How the data were processed

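Ribosomal RNA was depleted and directional libraries were sequenced as paired-end reads. The authors aligned the reads to mm10 using STAR (2.6.1b per the submitters' processing notes, another release in the study's methods) and deposited estimated counts per gene from RSEM (1.3.1). Between 3.36% and 4.09% of the values per mouse were not whole and were rounded. Counts were tested with edgeR (4.0.16, R 4.3.3): filterByExpr, TMM, the quasi-likelihood test and Benjamini-Hochberg adjustment over 12892 genes, on all 6 mice without covariates. The SE is the log2 change divided by the square root of F. Log2 CPM used a prior count of 2. DESeq2 (1.42.0), limma-voom (limma 3.58.1), other scalings and filters and leaving out each mouse were alternatives. A call was an adjusted p under 0.01, with 0.05 as a second rule. The study's methods used DESeq2 with an adjusted p under 0.01 together with a q value under 0.05. Intervals have 95% confidence. Each labelled sample was taken as 1 mouse. The labels do not state outright that samples of a group come from separate animals, and if they did not, p-values measure only the spread between these samples, which may be technical. No pair of libraries was identical, and chi-square per degree of freedom between pairs was 7.22 to 65.8. Control columns are numbered 2 to 4 where the labels number the samples 1 to 3, and were used as the control floxed group without matching to single labels. Coordinates and exons come from GENCODE M21, the same assembly as mm10, and promoters from RefSeq GRCm38.p6.

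Named genes are all members, Akt1 and Akt2, the 3 genes with the smallest p and those past an adjusted p of 0.05 in each related list, and the 3 genes most like Mfn2 and the member with the smallest p. Foxo genes, the regulators of Mfn2 transcription above 0, Dnm2, Myl1, single marker genes, the fusion and fission sums, the motifs, Hbb-b1 and the values of list genes without a mouse were added after values were seen. The members and lists were chosen with earlier results of these data known. Symbols such as 2410015M20Rik (Micos13) were matched through RefSeq synonyms, a gene counted within its list is not reported here by itself, and Mtfr2, Pld6 and Mgarp were too low to test.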

Additional observations from a re-analysis of the deposited data

How the results depend on the processing

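Leaving out a mouse in turn gave a median log2 change of the members between -0.30 and -0.17 and from 7 to 9 members below 0, and between 0 and 1 members passed an adjusted p under 0.05 (0 without any mAktDKO mouse or without control floxed mouse 3) and 0 passed 0.01. Under library totals the median of the members was -0.11, 6 were below 0, and Dnm1l (0.12) and Mief1 (0.049) turned sign. DESeq2 gave 1 member past 0.01 and 2 past 0.05, and the threshold of 0.05 in edgeR gave 1. Signs also turned without single mice for Dnm1l (-0.13 to 0.064), Mff (-0.034 to 0.064) and the log2 ratio of Opa1 to Mfn2 (-0.10 to 0.093). For all of these the cause was not tested. Over all genes, 3 passed 0.01 and 152 passed 0.05 in edgeR, 341 and 786 in DESeq2, 32 and 381 without a filter, and 264 passed 0.05 with at least 10 counts in every mouse. Without single mice, 0 to 8 genes passed 0.01 and 3 to 388 passed 0.05. Mief2 had an adjusted p from 4.41e-05 to 0.22 over all alternatives. Depth limits Oma1, whose counting error of 0.093 in log2 units is as large as its spread within groups of 0.088, and nearly Mief1 (0.061 and 0.072), while for Mfn2 it was 0.016 against 0.15. No paired analysis was possible because numbers could not be matched across the groups, with columns flox 2 to 4 standing against labels 1 to 3.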
